A study of Mus musculus with 6 samples.

Results

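The genes described here carry newly made proteins into the endoplasmic reticulum (ER), fold and modify them there, and move them on to the Golgi. They were chosen by gene name: signal recognition particle and translocon genes (Srp, Srpr, Sec61 to Sec63), the TRAP complex (Ssr1 to Ssr4), signal peptidase, ribophorins (Rpn1, Rpn2), ER chaperones and protein disulfide isomerases, collagen hydroxylases, coat proteins of COPI and COPII vesicles, and p24 cargo receptors (Tmed). The names found 73 of the 12826 genes in the deposited table, and 70 of them had a mean of at least 1 FPKM (fragments per kilobase of transcript, corrected for depth) and entered the test. The names also caught Sec14l1, Sec14l2 and Sec14l4, genes of Sec14-like lipid-transfer proteins that are no part of ER import. Sec14l4, Sec31b and Tmed6 did not reach the mean of 1 FPKM.

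A protein with a signal peptide is recognised by the signal recognition particle as it leaves the ribosome, docks at the particle's receptor and enters the ER through the Sec61 channel. Inside, signal peptidase removes the signal, oligosaccharyltransferase adds sugars, and chaperones and disulfide isomerases fold the chain before COPII vesicles take it to the Golgi and COPI vesicles bring escaped ER proteins back. Extraembryonic endoderm, the layer that surrounds the early mouse embryo, is known as a secretory tissue. Its visceral part releases carrier proteins, and its parietal part lays down a thick basement membrane of laminin and type IV collagen, whose chains need prolyl and lysyl hydroxylases. The question here is whether the secretory genes followed the endoderm markers from library to library.

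The libraries came from ETX-embryos, structures that mouse embryonic, trophoblast and extraembryonic endoderm stem cells build together in culture, left without any treatment. The embryonic cells carried a GFP reporter of T (Brachyury), a gene of the primitive streak. After the trophoblast part was removed, the embryonic part was cut lengthwise, and the GFP-negative piece was called prospective anterior and the GFP-positive piece prospective posterior. Each of 3 individuals, A, B and C, gave 1 anterior and 1 posterior library, 6 in all, and the pieces of an individual are paired. A piece holds a mixture of cells, so fewer cells of a type and less RNA per cell cannot be told apart. All libraries come from the same reporter line in the same culture system, and the labels do not say whether the individuals came from separate aggregation runs.

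Some libraries stood apart. The number of genes above 0 ran from 9335 (anterior C) to 12141 (posterior B). The depth was estimated from whole-read steps in low values and set to 1 in anterior A. It reached 2.83 in posterior B and was lower in each anterior library than in the posterior library of the same individual. In embryo C the pieces were close, at 1.42 and 1.56. Over pairs of libraries, only 4.8% to 13.9% of shared low values lay on the estimated steps, so the depths are rough. The median posterior minus anterior difference over all 10914 tested genes was 0.43 in log2, and 0.91, 0.02 and 0.17 in embryos A, B and C. Differences of list medians are therefore also given relative to that shift. T went against the labels in embryo C: the anterior pieces of A, B and C were at 0, 0 and 42.5 FPKM and the posterior pieces at 5.03, 15.6 and 0 FPKM. Other streak genes followed the labels in that embryo. In anterior and posterior C, Mixl1 was at 0 and 4.97, Wnt3 at 0.92 and 6.15 and Nodal at 0.32 and 4.77 in log2(FPKM + 1), and 11 of 12 tested streak and mesoderm markers were higher in posterior C. Whether the pieces of embryo C were exchanged was not tested, and an exchange would put both endoderm lists on the anterior side in all 3 embryos and the streak list on the anterior side in C. Values are therefore given per embryo. Markers of extraembryonic endoderm also turned around between embryos. With the library's median gene subtracted, in log2(FPKM + 1), the 18 tested visceral endoderm markers averaged 1.55, 1.48 and -1.79 for the anterior pieces of A, B and C, against -0.01, 1.10 and -0.05 for the posterior pieces. The 17 parietal endoderm and XEN (extraembryonic endoderm stem cell) markers averaged 2.0, 1.83 and -0.57 in the anterior libraries versus 0.26, 0.38 and 1.24 in the posterior ones. By these means both lists were higher in the anterior piece in A and B and in the posterior piece in C, but the visceral gap in B was narrow. As a share of all FPKM the visceral markers were higher in posterior B (0.727%) than in anterior B (0.343%), with Spink3, Apoc2 and Apom among those higher there. Anterior C held only 7 of 21 visceral markers above 0, with Rbp4 and Ttr listed at 0.

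As a whole, the secretory genes lay close to all genes in embryos B and C, with no firm sign in C. Their median posterior minus anterior difference, less that of all genes, was -0.50, -0.07 and -0.09 in embryos A, B and C, whereas the visceral endoderm list gave -1.95, -1.29 and 1.73 and the parietal list -1.89, -1.82 and 2.33. In embryo C the secretory value was 0.13 after quantile normalization and 0.00 with no filter on low values, and the visceral value was 3.71 with a pseudocount of 0.1 and 0.80 with no filter. A gene higher in the anterior library of A and B and in the posterior library of C has the direction of the endoderm lists' medians, and 8 of 70 secretory genes (11.4%) did, against a background of 9.52% of all tested genes. Of the visceral endoderm markers 6 of 18 had that pattern, and of the parietal and XEN markers 8 of 17. The direction was taken from these 2 lists, so their own counts are no separate result. The 8 secretory genes were Calr, Hspa5, P4hb, Pdia3, P4ha2, Plod1, Serpinh1 and Sec24d. All but Sec24d fold or modify proteins in the ER lumen. The chaperones, the disulfide isomerases and the collagen hydroxylases with Serpinh1 together have 13 tested members, a grouping made after their values were seen, and 7 of these 13 had the pattern against 1 of the other 57. The pattern counts signs with the shift of all genes left in. In embryo C Hspa5 had it by 0.08, less than the 0.17 of the median gene, and P4ha2 by 0.25.

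**Figure D1:**
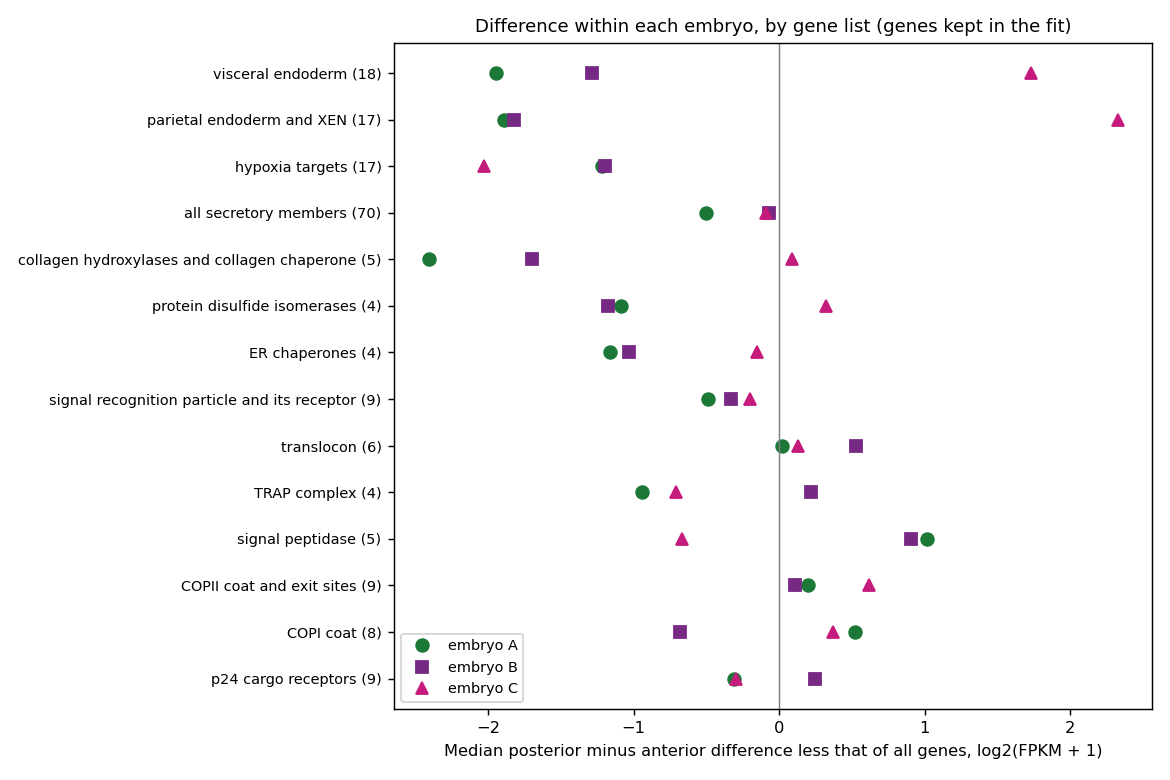
Median posterior minus anterior difference within each embryo, less the median over all tested genes, in log2(FPKM + 1) on the horizontal axis, for endoderm markers, hypoxia targets, all secretory genes and their groups (1 row each, number of tested genes in brackets). Circles, squares and triangles are embryos A, B and C. The endoderm lists lie at -1.95 to -1.29 in A and B and at 1.73 and 2.33 in C, all secretory genes at -0.50 to -0.07, and the hydroxylases at -2.41, -1.70 and 0.09.

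No secretory gene passed the test between domains. The limma test with the embryo as a block called none at an adjusted p under 0.05 in either direction (background 0% of all tested genes in each direction), and the smallest adjusted p among members was 0.571. At an unadjusted p under 0.05, 3 of 70 members (Tmed1, Sec61a1 and Spcs1) had higher posterior values, where the background is 7.24%, and 0 were higher in the anterior domain, where it is 0.788%. On average 39 of 70 members (55.7%) had the higher mean in the posterior libraries, against 64.9% of all genes. That number was 25 with each library centred on its median and 27 after quantile normalization. A member was higher in the posterior piece of 3 of 3 embryos in 16 of 70 cases (background 21.5%) and in the anterior piece in 10 (background 8.25%). The reverse of the endoderm direction, posterior in A and B and anterior in C, was seen in 9 of 70 members (background 15%). The median member differed by 0.18, which is -0.25 relative to all genes. Without embryo C these values were 0.13 and -0.33, and without embryo A 0.00 and -0.17. Among the 3 embryos the limma F test also called no member at an adjusted p under 0.05 (background 0%), and 1 at an unadjusted p under 0.05 (Sec11c, background 2.77%). The median standard error of a difference over all genes was 0.96 in log2.

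**Figure D2:**
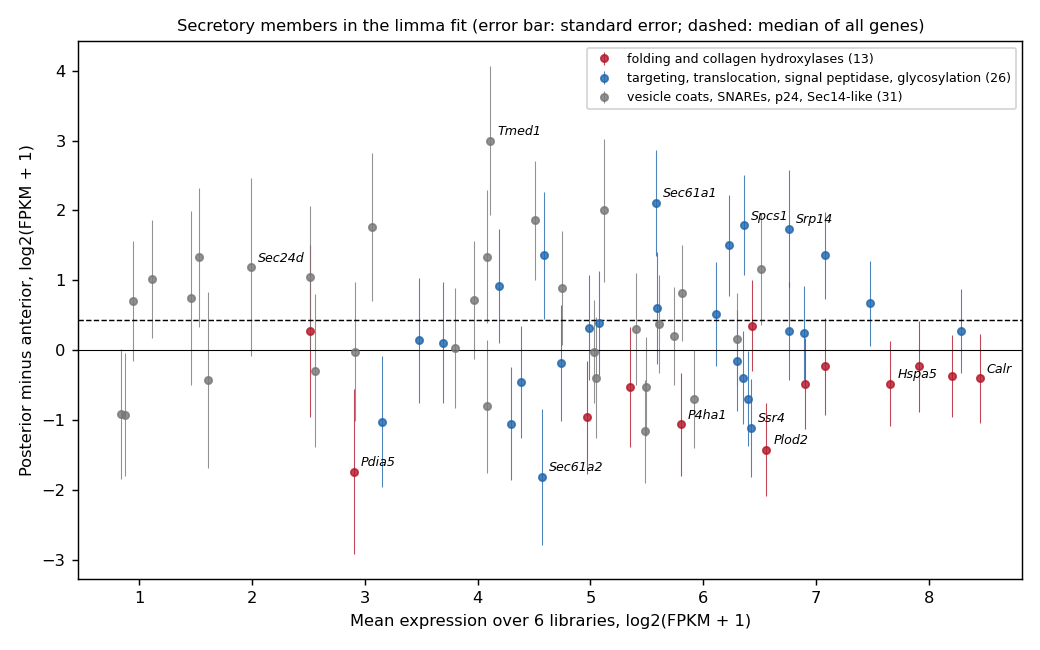
Posterior minus anterior difference of each of the 70 tested secretory genes, in log2(FPKM + 1), against mean expression over the 6 libraries. Points are genes, error bars the standard error of the limma fit, and the dashed line the median of all genes at 0.43. The 13 folding and collagen-modifying genes (red) were grouped after their values were seen. Of these, 11 lie below 0 and 2 (15.4%) above, against 64.9% of all tested genes above 0. Tmed1, Sec61a1 and Spcs1 have the 3 smallest unadjusted p of the limma fit.

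The ER chaperones were the most abundant group. Hspa5 (BiP, chromosome 2, 34772090 to 34776529), the Hsp70 of the ER lumen and sensor of unfolded chains, was at 7.84, 8.23 and 7.61 in the anterior libraries versus 7.39, 7.16 and 7.69 in the posterior ones (embryos A, B and C in that order throughout), in log2(FPKM + 1), the scale of every level and difference that follows. Anterior A and B were above their posterior partners and anterior C just below its own. Calr (chromosome 8, 84842088 to 84846931), calreticulin, a lectin that holds glycoproteins during folding, was at 9.68, 8.83 and 7.46 in the anterior libraries versus 8.46, 7.92 and 8.38 in the posterior ones. It was the secretory gene with the highest mean, and its highest and lowest libraries were both anterior ones, A and C. Hsp90b1 (Grp94, chromosome 10, 86690841 to 86705444), the Hsp90 of the ER, was at 8.16, 8.94 and 8.11 against 8.12, 7.91 and 8.05. Only embryo B separated its pieces by more than 0.1, at -1.03. Canx, calnexin, the membrane-bound partner of calreticulin, was at 7.50, 8.55 and 8.03 against 8.53, 7.56 and 7.30, and in embryo A it was higher in the posterior piece. Over domains the differences were -0.48 ± 0.61 (SE) for Hspa5, -0.40 ± 0.64 for Calr, -0.37 ± 0.59 for Hsp90b1 and -0.23 ± 0.65 for Canx, each smaller than its standard error. The group's median difference less that of all genes was -1.16, -1.03 and -0.15 for embryos A, B and C.

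Chaperone genes of the ER are known to share a promoter sequence, so a count among them is a description and no independent result. That sequence is the ER stress response element. Its letters, CCAAT, then 9 bases of any kind, then CCACG, were searched on both strands from 250 bases before to 50 after the start in the RefSeq promoter table (GRCm38.p6, the first promoter listed per gene), which matched 63 of the 73 members. It was found in the promoters of all 4 ER chaperones and of Pdia6, or 7.94% of the matched members, against 0.13% of all 27025 promoters and 0.156% of the 7698 that belong to tested genes. These 5 promoters are printed because their genes are the folding core of the list. Capitals mark the CCAAT and CCACG letters, or their reverse complement where the element lies on the other strand (Calr and the second of 2 in Hsp90b1).
Hspa5 promoter, chr2:34771840-34772139, plus strand: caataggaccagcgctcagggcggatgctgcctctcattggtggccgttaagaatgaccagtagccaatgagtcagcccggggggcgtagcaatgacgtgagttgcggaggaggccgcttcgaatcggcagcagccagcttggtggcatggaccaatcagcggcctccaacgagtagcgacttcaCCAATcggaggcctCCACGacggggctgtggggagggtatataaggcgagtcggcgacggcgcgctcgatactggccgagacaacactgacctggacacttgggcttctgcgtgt
Calr promoter, chr8:84846882-84847181, minus strand: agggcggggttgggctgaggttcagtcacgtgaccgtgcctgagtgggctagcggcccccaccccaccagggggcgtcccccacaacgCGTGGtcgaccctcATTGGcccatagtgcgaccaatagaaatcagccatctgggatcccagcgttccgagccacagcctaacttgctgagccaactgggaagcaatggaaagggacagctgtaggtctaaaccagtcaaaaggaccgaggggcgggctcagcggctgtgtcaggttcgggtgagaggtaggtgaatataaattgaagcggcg
Hsp90b1 promoter, chr10:86705395-86705694, minus strand: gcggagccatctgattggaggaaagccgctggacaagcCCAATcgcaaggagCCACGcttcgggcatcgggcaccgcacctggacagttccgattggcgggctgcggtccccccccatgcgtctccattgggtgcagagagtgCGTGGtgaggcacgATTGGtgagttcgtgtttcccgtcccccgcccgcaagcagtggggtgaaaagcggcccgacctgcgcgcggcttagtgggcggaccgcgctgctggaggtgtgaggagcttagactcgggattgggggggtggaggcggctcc
Canx promoter, chr11:50325624-50325923, minus strand: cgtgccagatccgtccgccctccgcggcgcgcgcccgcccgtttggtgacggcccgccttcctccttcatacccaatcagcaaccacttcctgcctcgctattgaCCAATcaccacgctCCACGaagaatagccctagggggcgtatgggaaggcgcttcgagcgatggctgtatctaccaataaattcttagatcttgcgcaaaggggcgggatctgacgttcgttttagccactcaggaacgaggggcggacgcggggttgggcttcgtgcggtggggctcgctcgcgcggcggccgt
Pdia6 promoter, chr12:17266339-17266638, plus strand: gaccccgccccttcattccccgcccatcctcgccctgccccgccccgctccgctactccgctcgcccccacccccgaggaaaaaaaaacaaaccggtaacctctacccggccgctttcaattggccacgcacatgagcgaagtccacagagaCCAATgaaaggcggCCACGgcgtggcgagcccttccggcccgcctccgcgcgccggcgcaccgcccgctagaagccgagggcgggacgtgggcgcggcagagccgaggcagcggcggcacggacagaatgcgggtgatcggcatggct

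The 5 genes that hold the element did not share 1 pattern of signs across embryos. Hspa5 and Calr were higher in the anterior piece of A and B and in the posterior piece of C, Hsp90b1 was higher in the anterior piece of all 3 embryos, Canx was so in B and C, and Pdia6 was higher in the posterior piece of all 3. Some margins were small: Hsp90b1 differed by -0.04 and -0.06 in A and C, and Hspa5 by 0.08 in C. In embryo B all 4 chaperones differed by -1.07 to -0.91. The signs leave the shift of all genes in. In embryo A the median gene was higher in the posterior piece by 0.91, Pdia6 by 0.23 and Canx by 1.03. With each library centred on its median, Pdia6 differed by -0.14 between domains. A match of letters is a description of the promoter, and the binding of a factor was not measured.

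Among the disulfide isomerases, which form and reshuffle the cysteine bonds of folding proteins, P4hb and Pdia3 had the direction of the endoderm markers. P4hb (chromosome 11, 120560298 to 120573253), protein disulfide isomerase itself and also the beta subunit of prolyl 4-hydroxylase, was at 7.46, 8.23 and 5.90 in the anterior libraries versus 6.81, 7.06 and 7.04 in the posterior ones. Anterior C was its lowest library, 1.15 below its partner, while anterior B was 1.17 above its own. Pdia3, the isomerase that works with calnexin and calreticulin on glycoproteins, was at 7.54, 7.50 and 6.37 against 6.96, 6.37 and 6.65. Anterior C was level with posterior B at the low end. Pdia6 was at 6.74, 6.34 and 5.69 against 6.96, 6.45 and 6.39, with the pieces 0.23, 0.11 and 0.70 apart. Pdia5 was at 1.91, 5.32 and 4.07 against 3.18, 2.89 and 0, the widest spread of the group. Pdia4 shares a row with a microRNA (Mir704) in the table, so the choice by name left it out. That joined row was at 6.90, 5.28 and 4.86 against 5.20, 4.36 and 4.69. The domain differences were -0.23 ± 0.69 for P4hb, -0.48 ± 0.65 for Pdia3, 0.35 ± 0.65 for Pdia6 and -1.74 ± 1.18 for Pdia5.

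**Figure D3:**
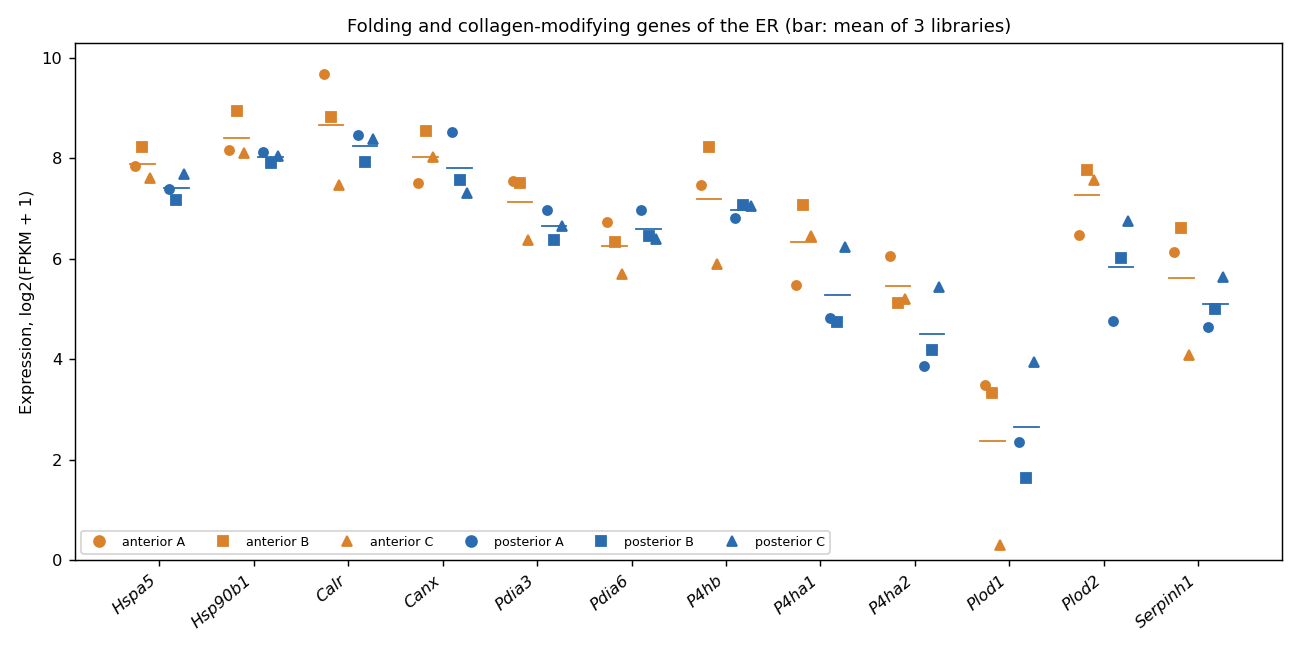
Expression in log2(FPKM + 1) of 12 of the 13 tested folding and collagen-modifying genes (Pdia5 is given in the text), 1 point per library, with circles for embryo A, squares for B and triangles for C, anterior pieces in orange and posterior ones in blue, and the mean of 3 libraries as a bar. Anterior C is the lowest anterior library for Calr, P4hb and Serpinh1, and Plod2 lies at 6.47 to 7.76 in the anterior and 4.76 to 6.75 in the posterior libraries.

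The collagen-modifying genes had the lowest median difference of the member groups in embryos A and B, at -1.49 and -1.68, and all 5 were higher in the anterior piece there. Background shares of genes higher in the anterior piece are 30.8% in A, 48.2% in B and 40.9% in C. The group's median difference less that of all genes was -2.41, -1.70 and 0.09. Plod2 (chromosome 9, 92539636 to 92608428), a lysyl hydroxylase of collagen, was at 6.47, 7.76 and 7.57 in the anterior libraries versus 4.76, 6.02 and 6.75 in the posterior ones. It was higher in the anterior piece of 3 of 3 embryos, by 1.42 ± 0.66 on average, with an adjusted p of 0.617 and with overlap of anterior A and posterior C. P4ha1 (chromosome 10, 59323197 to 59373304), a catalytic subunit of prolyl 4-hydroxylase, was at 5.47, 7.07 and 6.46 against 4.82, 4.75 and 6.24. It too was higher in 3 of 3 anterior pieces, by only 0.22 in embryo C. P4ha2 (chromosome 11, 54100924 to 54131668), a second catalytic subunit, was at 6.06, 5.12 and 5.19 against 3.86, 4.18 and 5.44, with embryo C reversed by 0.25.

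Serpinh1 and Plod1 turned around in embryo C by more. Serpinh1 (Hsp47, chromosome 7, 99345375 to 99353239), a chaperone that binds only procollagen, was at 6.13, 6.61 and 4.08 in the anterior libraries versus 4.64, 5.0 and 5.63 in the posterior ones. Its pieces differed by -1.49, -1.61 and 1.55. Plod1, another lysyl hydroxylase, was at 3.49, 3.32 and 0.30 against 2.36, 1.64 and 3.94, and differed by -1.12, -1.68 and 3.63. The type IV collagen gene Col4a1, a marker on the parietal list, ran the same way at 7.89, 8.12 and 3.64 against 4.31, 4.74 and 5.65. It was named after its values were seen, and only 8 of the 17 tested parietal markers ran that way. Plod3 shares a row with the microRNA Mir702. That row was at 5.61, 3.74 and 1.55 against 3.29, 2.08 and 4.38, again lower in anterior C than in posterior C. Over domains Serpinh1 differed by -0.52 ± 0.86 and Plod1 by 0.28 ± 1.23.

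P4ha1, P4ha2 and Plod2 are known as targets of the hypoxia-inducible factors, and a list of hypoxia genes had its higher values in the anterior libraries. The list of 17 hypoxia targets averaged 2.28, 1.99 and 2.75 above the library's median gene for the 3 anterior pieces versus 0.28, 0.84 and 0.13 for the posterior pieces. Its median difference less that of all genes was -1.22, -1.20 and -2.03 in embryos A, B and C. It therefore had the same direction in embryo C as in A and B, unlike the endoderm lists. Of the 17 targets, 10 (58.8%), 14 (82.4%) and 15 (88.2%) were higher in the anterior piece of A, B and C. The background is 30.8%, 48.2% and 40.9% of all tested genes. Vegfa, the vascular growth factor gene, named after its values were seen, was at 5.12, 5.31 and 5.26 against 2.62, 3.23 and 2.54. Plod2 and P4ha1 shared the hypoxia list's direction in all 3 embryos, and P4ha2, Plod1 and Serpinh1 the endoderm lists' direction, P4ha2 by 0.25 in embryo C. The part of hypoxia or endoderm in these differences was not tested.

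The core of the hypoxia response element, ACGTG, was found in 3 of the 4 promoters of collagen-modifying genes in the RefSeq table (P4ha1, P4ha2 and Serpinh1). The fourth, that of Plod1, held no ACGTG. Plod2 had no promoter entry there, so it was not searched. A 5-letter motif is common: it lies in 19.7% of all promoters, in 26.8% of those of tested genes and in 60.3% of the matched secretory members (38 of 63), counted on both strands. It can overlap the ER stress element where CCACG is followed by TG. The promoters of the prolyl hydroxylases that were higher in the anterior pieces of embryos A and B are printed with ACGTG, or its reverse complement, in capitals.
P4ha1 promoter, chr10:59323046-59323345, plus strand: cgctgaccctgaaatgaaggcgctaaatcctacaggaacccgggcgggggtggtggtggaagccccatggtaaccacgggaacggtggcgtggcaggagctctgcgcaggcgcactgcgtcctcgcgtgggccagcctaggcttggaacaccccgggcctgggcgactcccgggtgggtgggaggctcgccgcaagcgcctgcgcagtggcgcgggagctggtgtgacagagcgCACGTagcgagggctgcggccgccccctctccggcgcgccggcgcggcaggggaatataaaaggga
P4ha2 promoter, chr11:54100674-54100973, plus strand: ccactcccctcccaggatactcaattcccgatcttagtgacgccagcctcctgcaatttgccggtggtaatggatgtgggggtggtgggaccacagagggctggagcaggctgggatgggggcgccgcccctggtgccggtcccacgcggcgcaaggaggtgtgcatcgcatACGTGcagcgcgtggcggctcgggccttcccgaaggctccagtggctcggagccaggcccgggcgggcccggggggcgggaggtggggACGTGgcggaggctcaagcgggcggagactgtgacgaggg

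Of the genes that bring proteins into the ER, 5 of 6 tested translocon genes and 4 of 9 signal recognition particle and receptor genes were higher in the posterior domain on average, against 64.9% of all genes. Sec61a1 (chromosome 6, 88503607 to 88518800), the channel subunit of the translocon, was at 4.33, 5.11 and 4.12 in the anterior libraries versus 6.96, 5.96 and 6.97 in the posterior ones. All 3 posterior libraries lay above all 3 anterior ones, with a difference of 2.11 ± 0.76 and an adjusted p of 0.573. The small subunits had the same order. Sec61b was at 7.10, 7.43 and 6.91 against 8.21, 7.79 and 7.43, and Sec61g at 5.30, 5.40 and 5.73 against 7.23, 7.70 and 6.0. For Sec61b the gap was narrow, with anterior B and posterior C both at 7.43. Sec61a2, the other channel subunit gene, differed by -1.81 ± 0.97, from 6.67, 4.79 and 4.98 against 4.75, 5.25 and 1.0. Sec62, a partner of the channel for short chains, was at 4.87, 5.36 and 4.26 against 4.86, 6.01 and 4.57.

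Of the 5 tested signal peptidase genes, 1 had its higher value in anterior A and 1 in anterior B (background 30.8% and 48.2%), while 3 did in anterior C (background 40.9%). Spcs1 (chromosome 14, 30999826 to 31001666), a small subunit of the complex, was at 4.30, 6.59 and 5.49 in the anterior libraries versus 7.37, 7.53 and 6.85 in the posterior ones (1.79 ± 0.72, adjusted p 0.608). Sec11a, a catalytic subunit, was at 6.24, 6.77 and 6.18 against 7.50, 7.82 and 7.94 (1.36 ± 0.62). Both separated the domains without overlap. Spcs2 was at 3.81, 6.46 and 7.28 against 5.74, 6.61 and 6.76. Sec11c, the second catalytic subunit, varied among embryos more than between domains, at 5.17, 5.30 and 0.51 against 4.50, 3.41 and 0, with the smallest unadjusted p among embryos of the members, 0.0052, and an adjusted p of 0.996. Both libraries of embryo C were low. Rbp4, a carrier protein of visceral endoderm, was also listed at 0 in both libraries of embryo C. Other visceral markers were not: 14 of 21 were above 0 in posterior C, with Spink3 at 9.31 and Ttr at 5.02, and 7 of 21 in anterior C.

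Of the targeting genes, Srp14, which binds the RNA of the particle, was at 3.59, 7.82 and 6.25 in the anterior libraries versus 7.74, 8.05 and 7.09 in the posterior ones. Its difference of 1.74 ± 0.84 comes mainly from embryo A, at 4.15. Srprb, a subunit of the receptor, was at 5.50, 3.65 and 5.34 against 4.09, 3.25 and 4.0, higher in the anterior piece of 3 of 3 embryos. Srpr, the other subunit, was at 4.56, 4.64 and 4.60 against 3.87, 4.10 and 4.49 and was the 1 member whose anterior libraries all lay above the posterior ones, where the background is 3.77%. The opposite order without overlap was seen in 10 of 70 members (Sec61a1, Sec61b, Sec61g, Sec11a, Spcs1, Sec13, Sec23ip, Srp68, Tmed1 and Tmed4), where the background is 12.3%. Each number is close to or below its background. Srp54a and Srp54b are near-identical copies, so reads may be split between them and their values are uncertain.

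The TRAP complex sits beside the channel, and its members differed from each other. Ssr4 was at 8.22, 6.60 and 6.10 in the anterior libraries versus 6.48, 6.63 and 4.47 in the posterior ones, highest in anterior A and lowest in posterior C. Ssr3 was at 7.25, 6.62 and 5.98 against 7.49, 8.06 and 5.15, and Ssr1 at 5.54, 5.39 and 3.74 against 5.23, 5.85 and 4.75. The ribophorins hold the oligosaccharyltransferase, which attaches sugar chains. Rpn1 was at 5.32, 6.47 and 4.07 against 5.78, 5.64 and 6.25, and Rpn2 at 6.95, 5.82 and 6.87 against 6.12, 6.10 and 6.26. Rpn2 stayed between 5.82 and 6.95, and Rpn1 was lowest in anterior C.

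Vesicle genes showed no common direction. Sec24d, a cargo adaptor of the COPII coat known for its role in collagen export, was at 1.26, 2.92 and 0 in the anterior libraries versus 0.95, 1.93 and 4.86 in the posterior ones, and so was higher in the anterior piece of A and B and in the posterior piece of C. Sec23a, its partner in the inner coat, was at 3.57, 4.68 and 2.59 against 4.68, 4.82 and 3.49, higher in the posterior piece of all 3. Of the 9 tested COPII genes 8 were higher in the posterior domain on average, against 64.9% of all genes. Copa, the alpha subunit of the COPI coat, was at 6.10, 5.47 and 6.62 against 5.70, 4.42 and 4.57, higher in the anterior piece of 3 of 3 embryos. Copg, the gamma subunit, was at 0.85, 4.85 and 0.86 against 4.86, 5.05 and 1.92. Of the p24 receptors, which sort cargo between ER and Golgi, Tmed1 was at 2.93, 4.46 and 0.45 against 5.89, 4.89 and 6.05 (3.0 ± 1.07, adjusted p 0.571). Tmed4 was at 4.78, 3.65 and 2.32 against 5.44, 5.35 and 5.56. Tmed2 stayed between 5.35 and 6.50, and Tmed10 between 5.56 and 6.97, with no order by domain.

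Exons of 20 of the 73 members overlap a gene on the opposite strand in GENCODE M21, and no source used here says that the counting used strand. Among the genes named, these include Copa (with Ncstn), Sec61a2 (Nudt5), Spcs1 (Glt8d1), Tmed1 (Dnm2), Pdia3 (Catsper2) and Srpr (Fam118b). Reads from such partners cannot be told apart.

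The summed load was set beside the endoderm markers as a share of all FPKM in the table. The 73 members took 1.19%, 1.11% and 0.768% of the FPKM of the anterior libraries versus 0.841%, 0.917% and 0.788% of the posterior ones. The 2 libraries with the highest parietal endoderm and XEN share, anterior A and B (0.376% and 0.383%), were also the 2 with the highest secretory share. A share rests on each library's summed FPKM. The tested members' mean level in log2(FPKM + 1) was 4.57, 5.37 and 4.51 in the anterior libraries versus 5.15, 5.15 and 4.79 in the posterior ones. By that level anterior A lay below posterior A. Less the library's median gene, the means were 2.06, 1.92 and 1.65 versus 1.65, 1.78 and 1.38. In embryo C the parietal share was 0.0907% for the anterior and 0.170% for the posterior piece, and the secretory share was 0.768% and 0.788%. The 4 ER chaperones alone took 0.401% and 0.305% in anterior A and B and 0.154% to 0.193% elsewhere. The visceral markers took 0.727% in posterior B, where Spink3 reached 11.68 in log2(FPKM + 1), and 0.0281% in anterior C. Epiblast markers took 0.0173% and 0.0293% in anterior A and B and 0.0883% to 0.356% elsewhere. The 6 libraries are 3 pairs, so no correlation was computed.

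**Figure D4:**
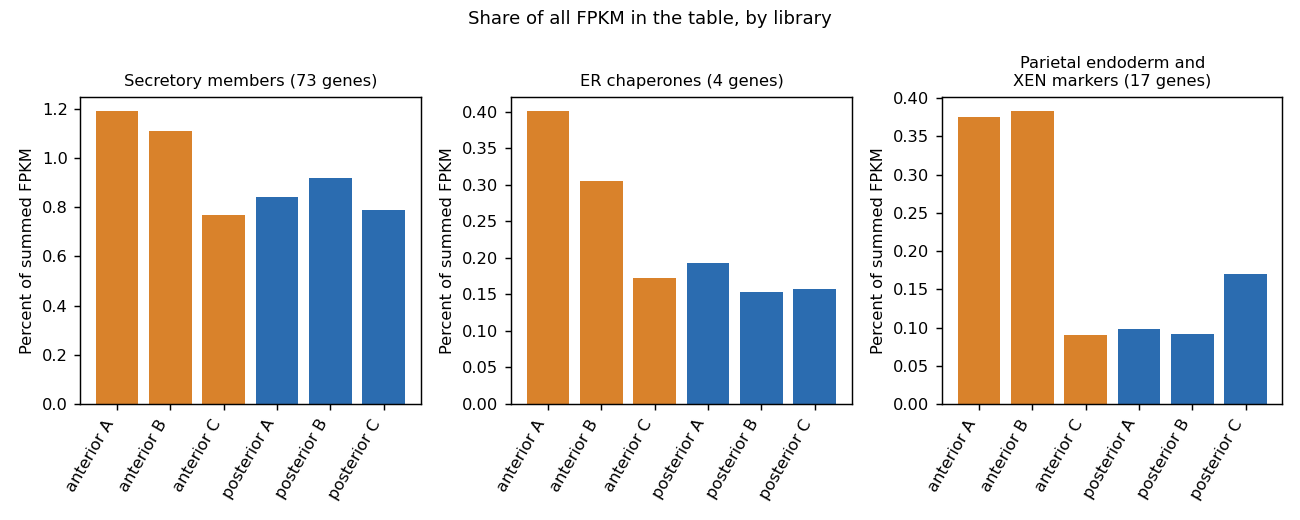
Percent of the summed FPKM of each library (bars, from 0) that came from the 73 secretory genes, the 4 ER chaperones and the 17 parietal endoderm and XEN markers, for anterior (orange) and posterior (blue) libraries. Anterior A and B are the highest in all 3 panels, at 1.19% and 1.11% in the first. The 4 chaperones are part of the 73 genes, so their panel is not separate from the first. They make up 0.401% and 0.305% in anterior A and B. Shares rest on each library's summed FPKM.

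Other genes of the pathway, in lists set by function, also gave no call at an adjusted p under 0.05. Their counts are to be read against the 64.9% of all genes with the higher posterior mean, and the 7.24% and 0.788% at an unadjusted p under 0.05 in the posterior and anterior direction. Of 26 tested genes of the unfolded protein response and ER degradation, 16 were higher in the posterior domain (median 0.51), 2 of them at an unadjusted p under 0.05 and 1 in the other direction. That 1 was Ddit3 (Chop), a stress transcription factor, at 5.47, 5.55 and 5.83 in the anterior libraries versus 1.83, 2.64 and 5.33 in the posterior ones (-2.35 ± 0.90, adjusted p 0.603). Derl2 and Mbtps2, which act in ER degradation and in the cleavage of Atf6, differed by 2.66 ± 0.97 and 2.44 ± 1.01. Of 24 genes of sugar transfer, glycan trimming and folding, 14 were higher in the posterior domain (median 0.14), 4 at an unadjusted p under 0.05 and 0 in the other direction. Tusc3 and Dad1, subunits of oligosaccharyltransferase, were among them: Dad1 was at 6.78, 6.78 and 5.83 against 8.47, 8.0 and 9.19, and Tusc3 at 0, 2.13 and 1.83 against 4.14, 4.92 and 5.06. Tram1, a helper of the translocon, differed by 1.79 ± 0.73. Of 27 genes of ER-Golgi traffic 16 were higher in the posterior domain (median 0.12), with 0 at an unadjusted p under 0.05 in either direction. The 3 with the smallest p there were Sar1a, the GTPase that starts COPII coats, Arcn1, the delta subunit of COPI, and Bet1, a SNARE, at 2.29 ± 1.20, 1.45 ± 0.80 and 1.65 ± 0.97.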

How the data were processed

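Smart-seq2 libraries with 18 cycles of preamplification were run on a HiSeq 2500. HTSeq-count quantified reads mapped to Ensembl version 38.77, per the labels' protocols. TopHat2 2.0.4, Cufflinks 2.0.2 and mm10 are listed, with no role, per the submitters' processing notes. The table the authors deposited has 12826 genes and 6 libraries. Its deposited values are log2(FPKM + 1), a scale read from the values: undoing a base 2 logarithm with 1 added returned short decimals (6 significant digits or fewer) for 98.8% to 99.1% of entries above 3, and undoing a natural one for 0.2% or fewer. The sources used here give no further normalization, and absolute depth is unknown.

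A mean of at least 1 FPKM was required, which kept 10914 genes. Domain and embryo were fitted with limma 3.58.1 in R 4.3.3 with a mean-variance trend, the embryo as a block, two-sided, with Benjamini-Hochberg adjustment over all kept genes and a threshold of 0.05 (2 residual and 7.5 prior degrees of freedom). The pairing comes from the dissection of 1 individual. Deviations of paired pieces from their domain means correlated at -0.069, 0.037 and -0.027 in A, B and C. The fit was tested on simulated data with known differences. p-values rest on the spread left after embryo and domain in these 3 individuals. For the domain test, that spread is how far the posterior minus anterior difference varied among the 3 individuals. limma draws it strongly toward a trend over all tested genes, so it is not each gene's own spread. The domain p-values leave out the spread of the individuals' mean levels. The log2(FPKM + 1) scale understates changes of low genes.

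The members and all gene lists were chosen with earlier results of these data known, so no list was tested. Named genes are a core list, the 6 members with the smallest unadjusted p in each direction and among embryos, and 3 per other pathway list. Genes named outside that rule, after their values were seen, are those listed by pattern, Sec13, Sec23ip, Srp68, Srpr, Rpn2, Vegfa, Col4a1, Rbp4, Ttr, Spink3, Apoc2, Apom, Mixl1, Wnt3 and Nodal. Members were matched to RefSeq promoters and GENCODE M21 (both GRCm38) by symbol. A trophoblast list averaged, over the library's median gene, 0.16, -1.15 and -0.13 for anterior versus -0.48, -0.07 and 0.08 for posterior pieces, and a streak and mesoderm list -2.31, -2.62 and -2.53 versus 0.05, 0.04 and 0.51.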

Additional observations from a re-analysis of the deposited data

How the results depend on the processing

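No secretory member passed an adjusted p under 0.05 in limma in any of the alternatives: no replicate block, a pseudocount of 0.1, no filter, a mean of at least 10 FPKM, median centring, quantile normalization, no trend, each embryo left out, and, chosen after seeing the data, anterior A or anterior C alone left out. Over all genes, 1 was called as higher in the anterior domain without anterior C alone. Among embryos 3 genes were called with no filter, with median centring and with quantile normalization, and 0 to 4 when 1 embryo was left out (4 without embryo A). With no replicate block the members' median difference stayed at 0.18 and 6 in place of 3 members reached an unadjusted p under 0.05 as higher in the posterior domain. The number was 1 to 3 with 1 embryo left out (1 without A), 4 and 5 without anterior A or C alone, and 1 with median centring. In the anterior direction it was 0 to 1 with 1 embryo left out (1 without C), 3 without anterior A alone and 2 with either scaling. The members' median difference of 0.18 became -0.31 with median centring, -0.23 with quantile normalization and -0.06 without anterior A alone, and lay between 0.00 and 0.33 with 1 embryo left out (0.00 without A, 0.33 without B). Relative to all genes it was -0.40 to -0.17 throughout. In embryo A the members' median less that of all genes moved from -0.50 to -0.74 with a pseudocount of 0.1. In embryo C it changed from -0.09 to 0.13 with quantile normalization and to 0.00 with no filter. The visceral endoderm value of 1.73 there became 3.71 with a pseudocount of 0.1 and 0.80 with no filter.

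Of 36 named members 22 kept their direction in each alternative and 14 did not. Differences with the other sign were, with median centring, Pdia6 -0.14, Plod1 -0.21, Sec62 -0.17, Ssr1 -0.10, Tmed2 -0.29, Tmed10 -0.32 and Ssr3 -0.20. With quantile normalization they were Plod1 -0.71, Sec62 -0.02, Tmed2 -0.12, Tmed10 -0.13 and Ssr3 -0.07. Without anterior A alone they were Calr 0.11, Tmed10 -0.16 and Spcs2 -0.50, and without anterior C alone Plod1 -0.76, Ssr1 -0.18, Rpn1 0.00 and Ssr3 -0.03. With 1 embryo left out in turn, 11 members changed sign, with lowest and highest values of Calr -1.06 to 0.01, Canx -0.86 to 0.15, P4hb -0.91 to 0.25, Plod1 -1.40 to 1.25, Serpinh1 -1.55 to 0.03, Rpn1 -0.18 to 1.32, Sec24d -0.65 to 2.27, Tmed2 -0.04 to 0.36, Tmed10 -0.05 to 0.34, Spcs2 -0.18 to 1.04 and Ssr3 -0.29 to 0.84. The cause was not tested. In embryo C the chaperone median less that of all genes was -0.22 to 0.01, and the collagen-modifying median -0.19 to 0.27, so neither has a firm sign there.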
